A study of Mus musculus with 28 samples.

Results

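The genes described here are 9 genes of the peroxisome proliferator-activated receptors (PPARs) and of fatty acid oxidation, measured in mouse bone marrow-derived macrophages in which the transcription factor Nrf2 was absent, left alone or activated. They are the receptor genes Ppard and Pparg, the coactivator gene Ppargc1b, the oxidation genes Cpt1a, Acadm and Acadl, and the genes Plin2, Angptl4 and Pdk4, which PPARs are known to induce. Every probe set whose annotated symbol is 1 of these 9 was taken, which gave 14 probe sets for 9 of the 18193 genes that the array annotation names singly. A further probe set, 1447902_at, is annotated to Ppard together with 1810013A23Rik, was not counted for either gene, and had group means between 6.18 and 6.41.

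The cells came from C57BL/6 J mice aged 12 weeks, and total RNA was hybridised to 28 Affymetrix arrays in 7 groups of 4. In the compound experiment, Nrf2-/- cells (KO) received RA839 or DMSO, and Nrf2+/+ cells (WT) received RA839 or DMSO, for 4 h and always at 0.2% DMSO (16 arrays). RA839 is a small molecule that binds Keap1, the adaptor protein that marks Nrf2 for degradation. Its dose is not given in the labels used here, and the design text spells the compound RA838 once. In the siRNA experiment, Nrf2+/+ cells received siKeap1-1 or siKeap1-2, which are siRNAs against Keap1, or siControl (12 arrays), with no time after transfection given. The labels state neither the allele behind Nrf2-/- nor which animals gave which culture. The design text calls the 4 arrays of a group biological replicates, so p-values measure the spread among those samples.

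PPARs are nuclear receptors that bind fatty acids and their derivatives and, paired with a retinoid X receptor (RXR), switch on genes that take up, store and burn fat. In macrophages, PPAR gamma drives uptake of oxidised lipid through Cd36, while PPAR delta and the coactivator PGC-1 beta (the product of Ppargc1b) are known for their part in the oxidative metabolism of alternatively activated cells. Long-chain fatty acids reach the mitochondrial matrix as carnitine esters made by Cpt1a. The acyl-CoA dehydrogenases Acadm and Acadl catalyse the opening step of each turn of beta-oxidation.

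The targeted genes went with their labels. Nfe2l2, which encodes Nrf2, averaged log2 values of 3.27 and 3.40 in KO cells with RA839 and DMSO, against 12.30 and 12.72 in WT cells with RA839 and DMSO. Keap1 averaged 9.06 with siKeap1-1 and 9.26 with siKeap1-2, against 11.09 with siControl. Nqo1, a textbook Nrf2 target, was 1.55-fold higher with RA839 than with DMSO in WT cells (0.63 ± 0.12, adjusted p = 0.0316), and 2.60-fold and 2.42-fold higher with siKeap1-1 and siKeap1-2 than with siControl. In KO cells its RA839 difference was 0.39 ± 0.12 (adjusted p = 1, unadjusted p = 0.00485), and the difference between the responses was 0.23 ± 0.17 (adjusted p = 1). All 9 macrophage markers were bright, with group means of 9.32 or more, but 4 of them differed with genotype under each treatment. Under DMSO, Cd14 and Fcgr1 were higher in KO than in WT cells by 1.83 ± 0.14 and 1.98 ± 0.40, and Itgam and Mrc1 were lower, with differences of -1.04 ± 0.13 and -0.42 ± 0.10. Under RA839 the same markers passed in the same directions. The 2 adipocyte markers measured, Adipoq and Lep, did not exceed a group mean of 4.10, and no B cell marker reached 6 in any group. Of 3 T cell markers Cd3e alone reached 6, with group means of 6.03 to 6.76. The dendritic cell marker Zbtb46 averaged 8.03 to 8.42 in the compound groups. Of 8 neutrophil markers, 2 were lower in KO than in WT cells under each treatment (S100a8 in both, with Ltf under DMSO and Cxcr2 under RA839) and the other 6 did not pass. Their sum on the linear scale, most of it S100a8, came to 1850 to 2401 and 2037 to 2999 in KO arrays with RA839 and DMSO, against 3183 to 4384 and 4435 to 4913 in WT arrays with RA839 and DMSO. Of 6 fibroblast markers, 3 were lower in KO cells under DMSO and 4 under RA839, led by Pdgfra (-0.81 ± 0.18 and -0.95 ± 0.18). Their sums were 98 to 158 in KO arrays and 109 to 282 in WT arrays, with none at a mean of 6 or more in the compound experiment. Pdgfra averaged 5.55 with siKeap1-1 and 6.45 with siKeap1-2, against 4.57 with siControl, and was the 1 fibroblast marker of 6 to pass with each siRNA, higher in both. In the siRNA experiment the macrophage markers summed to 96239 to 100019 with siKeap1-1 and 95379 to 98362 with siKeap1-2, against 103811 to 107244 with siControl, with 2 and 3 of the 9 markers lower, Cd14 and Fcgr1 in both. The neutrophil sums were 5632 to 9187 and 5762 to 11215, against 3693 to 8252, and the dendritic cell sums were 669 to 1158 and 768 to 1288, against 919 to 1685. Of 4 dendritic cell markers, 2 were lower with siKeap1-1 than with siControl, Ccr7 (-0.91 ± 0.23) and Flt3 (-0.52 ± 0.14). The other 2 did not pass, and with siKeap1-2 0 of the 4 passed. The part of these markers in the differences below was not tested. In bulk RNA such as this, fewer cells of a type and less RNA per cell cannot be told apart. WT_RA839 array 2 stood apart in RNA quality: its 3′ minus 5′ difference for Gapdh was 3.74, against 0.77 to 1.00 on the other 15 compound arrays. Without it and the WT_DMSO array of the same number, the counts of the 9 genes past the threshold were 0 for RA839 in WT, 0 for the difference between genotypes in the RA839 response, 3 for KO against WT in DMSO and 3 for KO against WT under RA839.

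All values are log2 RMA values, on which 1 unit is a doubling, and differences carry the standard error (SE) of a limma fit over 45037 probe sets within each experiment. A gene counted by its brightest probe set, and passed at a Benjamini-Hochberg adjusted p under 0.05. Arrays of the same number deviated together within each genotype of the compound experiment and within the siRNA experiment, so a second fit carried the array number as a block there. Levels are not compared between probe sets, nor between the compound and siRNA experiments, whose array medians differed (5.61 to 5.71 and 5.91 to 5.96).

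Across the 9 genes, Ppard was higher with both Keap1 siRNAs and, in the fit with the block, with RA839 in WT cells. This held on 1 of the 2 probe sets that name Ppard alone. Pparg was lower without Nrf2, and 3 of the 9 genes were lower with siKeap1-1 than with siKeap1-2, where 5.38% of all genes differed between these siRNAs (7 of 9 with the block, against 11.1%). With RA839 in WT cells, 0 of the 9 genes passed, 2 did at an unadjusted p under 0.05, and 0.506% of all genes passed (0.451% higher and 0.055% lower). With the array-number block 2 of 9 passed, Ppard higher and Ppargc1b lower, against 1.7% of all genes. With RA839 in KO cells 0 of 9 passed, with or without the block, as did 0% of all genes in either direction (limma; 860 of 45037 probe sets, none of them for these genes, had an unadjusted p under 0.05). In the difference between the genotypes' responses 0 of 9 passed without the block, 2 did at an unadjusted p under 0.05, and 0.066% of all genes passed, 0.066% higher and 0% lower. With the block 1 of 9 passed, Ppard, against 0.22%.

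In KO against WT cells under DMSO 3 of 9 passed, where 23.2% of all genes did. Acadm was higher (background 10.3%), and Pparg and Ppargc1b were lower (background 12.9%). Under RA839, 4 of 9 passed in KO against WT cells, where 28.6% of all genes did. Acadm and Pdk4 were higher (background 13.7%), and Ppard and Pparg were lower (background 14.9%). Shares of about 1 in 4 genes past the threshold leave counts of 3 and 4 among 9 close to the background. With siKeap1-1 against siControl 3 of 9 passed, Ppard higher and Acadm and Plin2 lower, where 12.2% of all genes did (7.06% higher and 5.18% lower). With the block it was 5 of 9, Ppargc1b and Angptl4 lower as well, against 19.5%. With siKeap1-2 against siControl 2 of 9 passed, Ppard and Acadl, both higher, where 8.84% of all genes did (4.94% higher and 3.9% lower). With the block it was 3 of 9, Pparg lower as well, against 15.9%. Between the siRNAs, 3 of 9 were lower with siKeap1-1 than with siKeap1-2 (Ppard, Acadm and Plin2) and 0 were higher, where 5.38% of all genes passed, 2.47% higher and 2.9% lower. With the block it was 7 of 9, against 11.1%, and without siKeap1-1 array 1, 2 or 4 or any 1 of the siKeap1-2 arrays, in the fit with no block, it was 1 of 9.

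The median difference of the 9 genes was -0.24 with siKeap1-1 against siControl and -0.33 for siKeap1-1 against siKeap1-2, where the medians of all genes were 0.02 and 0.00. In the other 6 comparisons the members' median lay between -0.08 and 0.04 and that of all genes between -0.02 and 0.03. The DMSO-treated WT arrays serve in both the RA839 and the genotype comparison, and the siControl arrays in both Keap1 comparisons, so results that share them are given side by side and not as separate support for each other. Same-numbered arrays of a genotype deviated together across treatments, so the genotype comparisons under DMSO and under RA839 are likewise not separate support.

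**Figure D1:**
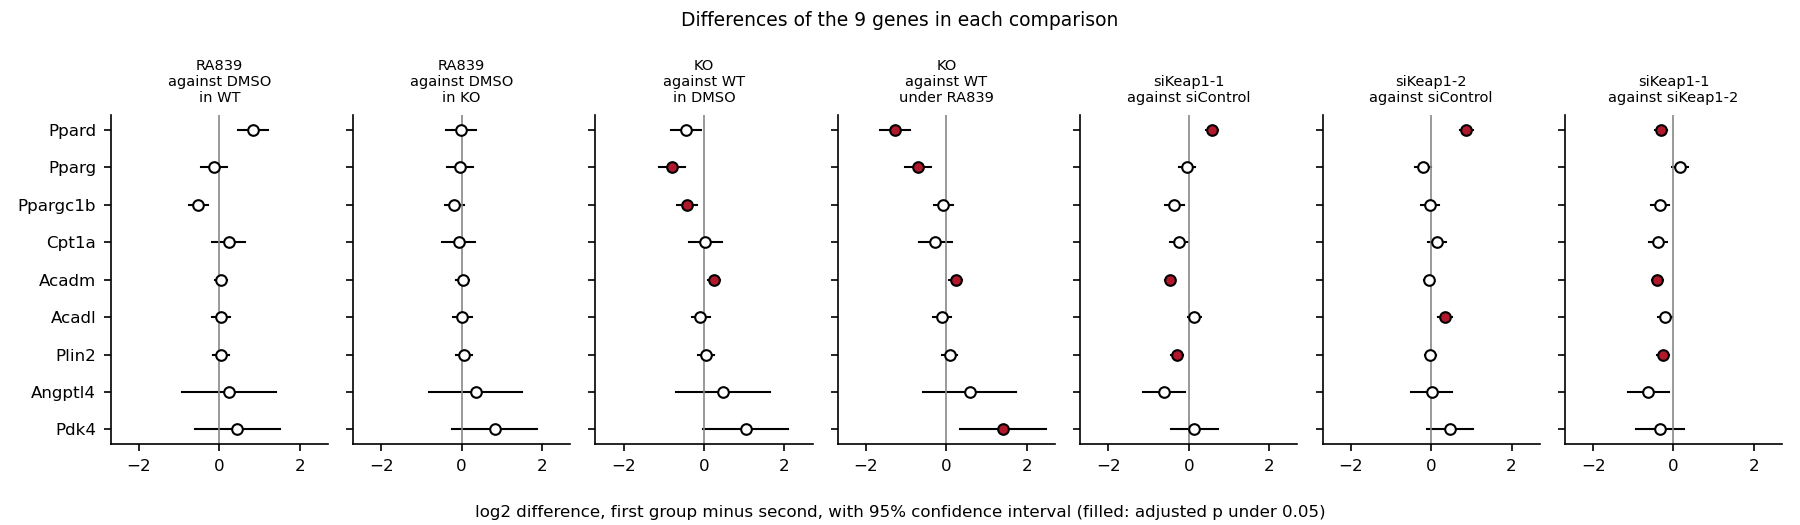
Log2 difference of each gene (brightest probe set, rows) in 7 comparisons (panels), first-named group minus second, with the 95% confidence interval of the limma fit. Filled points passed an adjusted p of 0.05. Ppard lies at 0.83 with RA839 in WT cells and at -0.02 in KO cells, and at 0.57 and 0.87 with siKeap1-1 and siKeap1-2. The intervals of Angptl4 and Pdk4 are the widest in the 4 compound panels.

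Ppard encodes PPAR delta, the receptor subtype expressed in nearly every tissue, and lies on chromosome 17 (GRCm38.p6, chr17:28232754-28301469, plus strand). RefSeq promoter windows, from 250 bases before to 50 after an annotated gene start, were searched for 7 of the 9 genes (9 windows). Ppargc1b and Angptl4 were not part of the search. On the same build Pparg lies at chr6:115360879-115490404, Cpt1a at chr19:3322326-3385735, Acadm at chr3:153922353-153944643, Acadl at chr1:66830839-66863309, Plin2 at chr4:86626910-86670217, Angptl4 at chr17:33774900-33781575 and Pdk4 at chr6:5483351-5496278. The core TGACNNNGC, which resembles the antioxidant response element that Nrf2 binds, occurred in 2 of these 9 windows, on either strand, against 12.4% of all 32851 windows. Those windows belong to Ppard and Pparg and are shown because they hold the match. The further Pparg windows, at chr6:115360894-115361193 and chr6:115421816-115422115, held none. Whether the matches bear on the changes described next was not tested. Capitals mark the match, and bases are numbered from 1 at the annotated start. The Ppard window spans chr17:28232504-28232803 with the match TGACGCCGC at bases -4 to 5 on the plus strand, and the Pparg window spans chr6:115362099-115362398 with the match on the minus strand, at bases -233 to -225 before a later annotated start of the gene.
Ppard: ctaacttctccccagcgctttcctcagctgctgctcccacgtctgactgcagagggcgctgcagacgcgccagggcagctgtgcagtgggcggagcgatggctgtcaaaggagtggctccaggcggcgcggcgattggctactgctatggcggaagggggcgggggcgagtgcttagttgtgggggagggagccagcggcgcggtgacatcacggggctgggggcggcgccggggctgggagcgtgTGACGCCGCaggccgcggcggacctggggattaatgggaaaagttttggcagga
Pparg: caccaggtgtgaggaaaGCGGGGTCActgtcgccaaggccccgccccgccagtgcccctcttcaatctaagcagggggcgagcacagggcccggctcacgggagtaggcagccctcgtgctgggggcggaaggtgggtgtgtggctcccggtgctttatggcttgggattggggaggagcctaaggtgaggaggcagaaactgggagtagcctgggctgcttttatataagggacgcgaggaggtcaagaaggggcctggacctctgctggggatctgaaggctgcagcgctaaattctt

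A match is a run of letters and says nothing about binding in these cells. A PPAR-type direct repeat, AGGNCA and AGGNCA parted by a single base, occurred in 0 of the 9 windows and in 0.381% of all windows. The PPAR core unit AGGTCA, whose minus-strand form TGACCT can overlap TGACNNNGC, occurred in 5 of 9 (Pparg in 2 windows, Cpt1a, Acadm and Plin2) against 16.3% of all windows.

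On probe set 1439797_at, Ppard read 8.37, 8.43, 8.99 and 8.98 in KO cells with RA839 and 8.44, 8.43, 9.05 and 8.91 in KO cells with DMSO. In WT cells it read 9.92, 10.22, 9.86 and 9.90 with RA839, against 9.39, 9.24, 9.02 and 8.94 with DMSO. All 4 RA839-treated WT arrays stood above every other compound array. The DMSO-treated WT arrays came next in mean, and 3 KO arrays reached into their range, number 3 in either treatment and number 4 with RA839. The KO groups were the lowest and covered nearly the same range with RA839 as with DMSO. In WT cells the RA839 mean was 0.83 ± 0.18 (SE) above the DMSO mean, 1.78-fold, with same-number differences of 0.53, 0.99, 0.84 and 0.96. Its adjusted p was 0.0607, just short of the threshold, and 0.00255 with the array-number block. In KO cells the difference was -0.02 ± 0.18 (95% interval -0.39 to 0.36), with same-number differences of -0.07, -0.01, -0.06 and 0.07. The response in WT exceeded that in KO by 0.85 ± 0.25, with an adjusted p of 0.914, and of 0.0437 with the block. Without both WT arrays numbered 2 the difference in WT cells was 0.78, with an adjusted p of 0.201 and of 0.00786 with the block, and the difference between responses was 0.79, with 0.901 and, with the block, 0.0543.

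Between genotypes, Ppard was 2.44-fold lower in KO than in WT cells under RA839 (-1.29 ± 0.18, adjusted p = 8.95e-05), without overlap, and still lower without both WT arrays numbered 2 (-1.20, adjusted p = 0.000611). Under DMSO the difference was -0.44 ± 0.18 with an adjusted p of 0.0876, and of 0.0479 without KO_DMSO array 3. The KO arrays numbered 1 and 2 lay at 8.37 to 8.44, and those numbered 3 and 4 at 8.91 to 9.05, in either treatment. With siKeap1-1 Ppard read 9.45, 9.37, 9.44 and 9.36, and with siKeap1-2 it read 9.65, 9.69, 9.72 and 9.76, against 9.03, 8.77, 8.78 and 8.75 with siControl. The 3 groups did not overlap, and the spread within each siKeap1 group was an SD of 0.05. Ppard rose 1.49-fold with siKeap1-1 (0.57 ± 0.07, adjusted p = 0.00029) and 1.83-fold with siKeap1-2 (0.87 ± 0.07, adjusted p = 1.5e-05). It was lower with siKeap1-1 than with siKeap1-2 by a difference of -0.30 ± 0.07 (adjusted p = 0.0345). That call was lost without siKeap1-1 array 1, 2 or 4 or any 1 of the 4 siKeap1-2 arrays, at adjusted p-values of 0.0509 to 0.0921.

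The second Ppard probe set, 1425703_at, had group means of 4.67 to 5.08 and passed in no comparison. With RA839 in WT cells its difference was -0.18 ± 0.13, and with siKeap1-2 it was 0.30 ± 0.12 (adjusted p = 0.19). The probe sets did not move together over the 16 compound arrays (r = -0.39) or the 12 siRNA arrays (r = 0.01). The jointly annotated 1447902_at, which was not counted, averaged 6.18 with RA839 and 6.41 with DMSO in WT cells. In KO cells it averaged 6.30 and 6.28. With siKeap1-1 and siKeap1-2 it averaged 6.35 and 6.40, against 6.37 with siControl. The Ppard changes thus rest on 1439797_at alone.

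Pparg, the receptor that drives fat cell formation and, in macrophages, Cd36, was lower without Nrf2. It read 9.03, 8.87, 9.47 and 9.42 in KO cells with RA839, against 9.80, 9.95, 10.17 and 9.69 in WT cells with RA839. Under DMSO it read 9.07, 9.20, 9.41 and 9.27 in KO cells, against 9.93, 9.86, 10.37 and 9.94 in WT cells. No KO array reached the lowest WT array under either treatment. Pparg was 1.73-fold lower in KO than in WT cells under DMSO (-0.79 ± 0.15, adjusted p = 0.0019) and 1.64-fold lower under RA839 (-0.71 ± 0.15, adjusted p = 0.00317), and both calls held under every alternative tried. RA839 gave differences of -0.12 ± 0.15 in WT and -0.04 ± 0.15 in KO cells, with 95% intervals of -0.45 to 0.20 and -0.37 to 0.28. With siKeap1-1 Pparg averaged 9.76 ± 0.16 and with siKeap1-2 9.60 ± 0.14, against 9.80 ± 0.06 with siControl (SD, n = 4 each). The siKeap1-2 difference of -0.20 ± 0.09 had an adjusted p of 0.251, and of 0.0461 with the block, being below 0 in all 4 same-number pairs.

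Ppargc1b encodes PGC-1 beta, a coactivator that works with PPARs and other receptors on mitochondrial genes. In KO cells it read 6.86, 7.21, 7.18 and 7.35 with RA839, against 7.14, 7.48, 7.33 and 7.37 with DMSO. In WT cells it read 7.34, 7.09, 7.31 and 7.16 with RA839, against 7.73, 7.61, 7.92 and 7.73 with DMSO. The DMSO-treated WT arrays stood above all other compound arrays. The RA839 difference in WT cells was -0.52 ± 0.11, with an adjusted p of 0.0738, and of 0.0135 with the block. Without both WT arrays numbered 2 these were 0.143 and 0.0223. In KO cells it was -0.18 ± 0.11 (95% interval -0.42 to 0.06), below 0 in 4 of 4 same-number pairs, and the genotypes' responses differed by -0.34 ± 0.16 with an adjusted p of 1. Ppargc1b was 1.34-fold lower in KO than in WT cells under DMSO (-0.42 ± 0.11, adjusted p = 0.0161). Without WT_DMSO array 3 or KO_DMSO array 1 that adjusted p was 0.0532 or 0.0552. Under RA839 the genotypes differed by -0.08 ± 0.11 (adjusted p = 0.669).

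With siKeap1-1 Ppargc1b read 8.08, 7.91, 7.87 and 7.66, and with siKeap1-2 8.32, 8.17, 8.14 and 8.20, against 8.48, 8.15, 8.05 and 8.25 with siControl. The siKeap1-1 arrays lay below all siKeap1-2 arrays and reached into the siControl range with 1 array. The siKeap1-1 difference from siControl was -0.36 ± 0.10 (adjusted p = 0.051, 0.0121 with the block), and it passed without siControl array 3 or siKeap1-1 array 1 as well, at 0.0412 and 0.0303. The siKeap1-2 difference from siControl was -0.03 ± 0.10. Between siKeap1-1 and siKeap1-2 it was -0.33 ± 0.10 (adjusted p = 0.117, 0.0287 with the block).

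**Figure D2:**
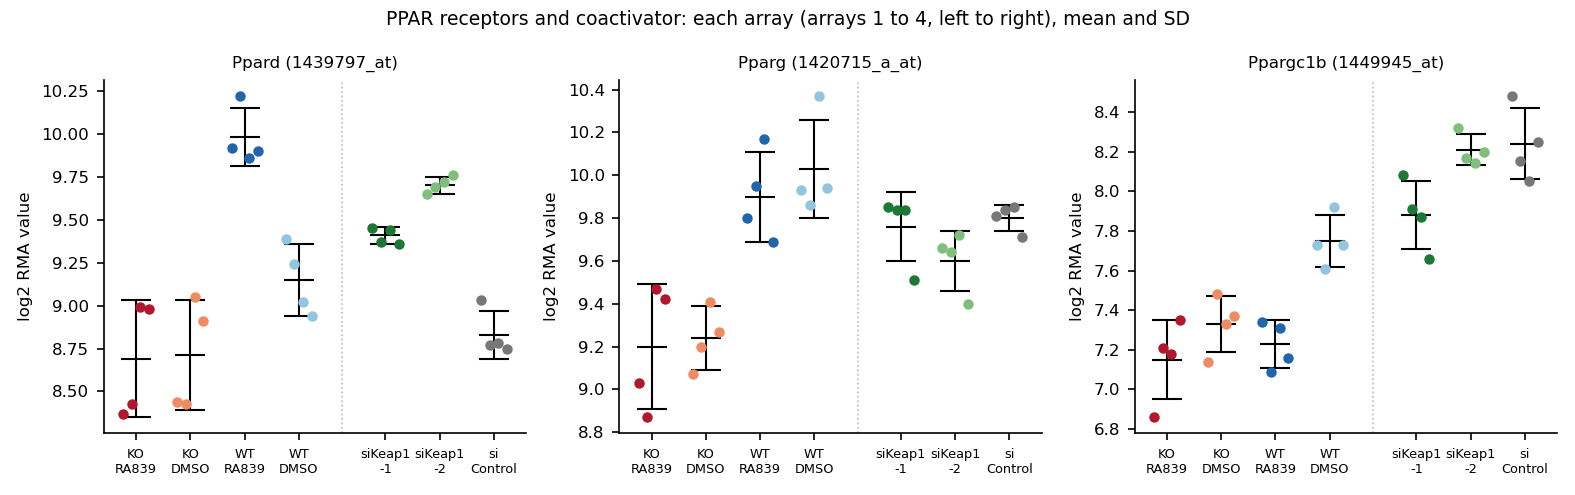
Log2 RMA values of Ppard, Pparg and Ppargc1b (brightest probe sets) on each of the 28 arrays, with the group mean and SD (n = 4), the vertical dotted line parting the compound from the siRNA experiment. Ppard reads 9.86 to 10.22 in RA839-treated WT cells and 8.94 to 9.39 in DMSO-treated WT cells, while the KO arrays of Ppard part into a lower and a higher pair in either treatment.

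Among the oxidation enzymes, Cpt1a, which makes the carnitine esters that carry long-chain fatty acids into mitochondria, was held by 3 probe sets that moved together (r = 0.79 to 0.99 over the compound arrays and 0.60 to 0.97 over the siRNA arrays). On 1438156_x_at it read 11.34, 11.40, 10.46 and 10.58 in KO cells with RA839, against 11.09, 11.22, 10.80 and 10.95 in KO cells with DMSO. In WT cells it read 11.09, 11.36, 11.28 and 11.14 with RA839, against 10.87, 10.94, 11.31 and 10.80 with DMSO. The RA839-treated KO arrays thus held both the highest and the lowest values of the compound experiment. RA839 gave differences of 0.24 ± 0.19 in WT cells (adjusted p = 0.72) and -0.07 ± 0.19 in KO cells, and KO and WT cells differed by 0.03 ± 0.19 under DMSO and by -0.28 ± 0.19 under RA839. Both genotype differences were within the spread between arrays (adjusted p = 0.923 and 0.315).

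In the siRNA experiment, Cpt1a on 1438156_x_at averaged 11.18 ± 0.21 with siKeap1-1 and 11.57 ± 0.10 with siKeap1-2, against 11.42 ± 0.13 with siControl (SD, n = 4 each). The siKeap1-1 arrays lay below all siKeap1-2 arrays. Their difference was -0.39 ± 0.11 with an adjusted p of 0.0641, and of 0.0229 with the block. It passed without siKeap1-1 array 3 as well (0.0181). The probe set 1460409_at passed for the same pair (-0.52 ± 0.12, adjusted p = 0.0255), but not without siKeap1-1 array 1, 2 or 4 or siKeap1-2 array 2, 3 or 4, with adjusted p-values of 0.0502 to 0.0817.

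Acadm, the medium-chain acyl-CoA dehydrogenase, varied little within groups (SD 0.03 to 0.10). With siKeap1-1 it read 10.24, 10.25, 10.27 and 10.32, and with siKeap1-2 10.68, 10.57, 10.72 and 10.71, against 10.69, 10.74, 10.81 and 10.67 with siControl. The 4 siKeap1-1 arrays lay below all 8 others, and the siKeap1-2 and siControl ranges overlapped. Acadm fell 1.37-fold with siKeap1-1 (-0.46 ± 0.06, adjusted p = 0.000421) and was 1.32-fold lower with siKeap1-1 than with siKeap1-2 (-0.40 ± 0.06, adjusted p = 0.00258). Both calls held under every alternative tried. The siKeap1-2 difference was -0.06 ± 0.06 (95% interval -0.18 to 0.07).

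In the compound experiment Acadm read 10.95, 10.76, 10.77 and 10.72 in KO cells with RA839, against 10.51, 10.60, 10.63 and 10.54 in WT cells with RA839. Under DMSO it read 10.82, 10.81, 10.74 and 10.72 in KO cells, against 10.56, 10.53, 10.49 and 10.53 in WT cells. All 8 KO arrays lay above all 8 WT arrays, though same-numbered arrays of a genotype were taken to be paired. The step was small, 0.25 ± 0.07 under DMSO (1.19-fold, adjusted p = 0.0285) and 0.23 ± 0.07 under RA839 (1.17-fold, adjusted p = 0.0334). The DMSO call was lost without WT_DMSO array 3 or KO_DMSO array 1 or 2 (0.0667 to 0.0729). The RA839 call was lost without WT_RA839 array 1 or 4 or KO_RA839 array 1, 2 or 3 (0.0507 to 0.111), with only the groups compared in the fit (0.11) and after quantile normalization (0.0764). RA839 itself gave differences of 0.04 ± 0.07 in WT and 0.03 ± 0.07 in KO cells.

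Acadl, the long-chain acyl-CoA dehydrogenase, read 12.73, 12.57, 12.47 and 12.52 with siKeap1-1 and 12.90, 12.81, 12.72 and 12.72 with siKeap1-2, against 12.60, 12.38, 12.38 and 12.36 with siControl, on 1448987_at. The siKeap1-2 arrays lay above all siControl arrays, and the siKeap1-1 arrays overlapped both groups. Acadl rose 1.28-fold with siKeap1-2 (0.35 ± 0.08, adjusted p = 0.0186), though not without siControl array 2, 3 or 4 or siKeap1-2 array 1 or 2, where the adjusted p was 0.0559 to 0.0597. With siKeap1-1 the difference was 0.14 ± 0.08 (adjusted p = 0.343). It was -0.21 ± 0.08 for siKeap1-1 against siKeap1-2, with an adjusted p of 0.192, and of 0.0263 with the block. In the compound experiment Acadl stayed between 11.90 and 12.43, the lowest being WT_RA839 array 2, the array with the RNA quality difference, and its 4 differences lay between -0.10 and 0.04. Without both WT arrays numbered 2 the KO against WT difference under RA839 was -0.22 (adjusted p = 0.0528). The other Acadl probe set, 1448988_at, was dim (group means 4.21 to 5.19) and ran against the first (r = -0.60 and -0.78). It passed in no comparison, and with the mean of both probe sets the KO against WT difference under RA839 was -0.24 (adjusted p = 0.0282).

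Plin2 coats lipid droplets and was bright on every array, between 13.50 and 14.12. With siKeap1-1 it read 13.51, 13.54, 13.74 and 13.50, and with siKeap1-2 13.78, 13.84, 13.89 and 13.87, against 13.78, 13.86, 13.91 and 13.90 with siControl. The siKeap1-1 arrays lay below all others, and the siKeap1-2 arrays lay in the siControl range. Plin2 fell 1.22-fold with siKeap1-1 (-0.29 ± 0.07, adjusted p = 0.0188), and was 1.20-fold lower with siKeap1-1 than with siKeap1-2 (-0.27 ± 0.07, adjusted p = 0.0476). The first call was lost without siControl array 2, 3 or 4 or siKeap1-1 array 1, 2 or 4 (0.0505 to 0.0581) and with only the groups compared in the fit (0.0582). The second was lost without siKeap1-1 array 1, 2 or 4 or any 1 of the siKeap1-2 arrays (0.0651 to 0.126), with only the groups compared (0.125) and after centring on array medians (0.0543). With the block the adjusted p-values were 0.00793 and 0.0188. The 4 compound differences of Plin2 lay between 0.03 and 0.08, each with an SE of 0.09.

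Angptl4 encodes a secreted inhibitor of lipoprotein lipase. On 1417130_s_at it read 10.49, 10.34, 7.82 and 7.87 in KO cells with RA839, against 9.12, 9.04, 8.41 and 8.55 in KO cells with DMSO. In WT cells it read 8.09, 8.41, 9.31 and 8.38 with RA839, against 7.88, 7.65, 9.28 and 8.40 with DMSO. Arrays 1 and 2 of the RA839-treated KO cells were the highest of the experiment, and arrays 3 and 4 lay below every DMSO-treated KO array. By array number, RA839 minus DMSO in KO cells came to 1.37, 1.30, -0.59 and -0.69, so that the mean difference of 0.35 ± 0.55 describes none of the 4 pairs. In WT cells the numbers gave 0.21, 0.76, 0.03 and -0.02, with a mean of 0.24 ± 0.55. KO and WT cells differed by 0.48 ± 0.55 under DMSO and 0.58 ± 0.55 under RA839, with overlapping arrays and adjusted p-values of 0.584 and 0.471.

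The dim Angptl4 probe set 1453410_at, with group means of 2.58 to 3.42, passed in KO against WT cells under RA839 (0.84 ± 0.27, adjusted p = 0.0324). That call was lost without WT_RA839 array 1, 3 or 4 or KO_RA839 array 1 or 2 (0.0594 to 0.093), without both WT arrays numbered 2 (0.0571) and with only the groups compared (0.0733). In the siRNA experiment Angptl4 on 1417130_s_at read 7.43, 7.35, 7.88 and 6.67 with siKeap1-1 and 7.62, 8.09, 8.20 and 7.93 with siKeap1-2, against 7.72, 7.93, 8.46 and 7.68 with siControl. The siKeap1-1 arrays were lower in mean and overlapped the others with array 3. The siKeap1-1 difference was -0.62 ± 0.24 against siControl (adjusted p = 0.141, 0.0244 with the block) and -0.63 ± 0.24 against siKeap1-2 (adjusted p = 0.204, 0.0364 with the block), below 0 in 4 of 4 same-number pairs each. The siKeap1-2 difference from siControl was 0.01 ± 0.24.

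Pdk4 phosphorylates and inactivates pyruvate dehydrogenase, which turns cells from glucose towards fat as fuel. It read 7.37, 7.42, 5.03 and 5.74 in KO cells with RA839, against 5.19, 4.32, 5.86 and 4.56 in WT cells with RA839. Under DMSO it read 6.18, 5.93, 5.02 and 5.17 in KO cells, against 4.03, 4.32, 5.40 and 4.39 in WT cells. KO arrays 1 and 2 lay above all WT arrays under both treatments, while KO arrays 3 and 4 lay among them. Pdk4 was higher in KO than in WT cells under RA839 by 1.41 ± 0.50 (2.65-fold, adjusted p = 0.0479), although the groups overlapped. The call was lost without WT_RA839 array 1, 2 or 4 or KO_RA839 array 1 or 2 (0.0655 to 0.147), without both WT arrays numbered 2 (0.14), with a trended prior (0.0572), with only the groups compared (0.104) and with array weights (0.0869). Under DMSO the difference was 1.04 ± 0.50 (adjusted p = 0.154). RA839 gave 0.82 ± 0.50 in KO cells and 0.45 ± 0.50 in WT cells, with adjusted p-values of 1 and 0.806. The same-number differences were 1.19, 1.5, 0.01 and 0.57 in KO cells and 1.17, 0.00, 0.45 and 0.17 in WT cells. In the siRNA experiment Pdk4 was dim and scattered, with 4.52 ± 0.62 for siKeap1-1 and 4.86 ± 0.31 for siKeap1-2, against 4.38 ± 0.28 for siControl (SD, n = 4 each), and no difference passed.

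**Figure D3:**
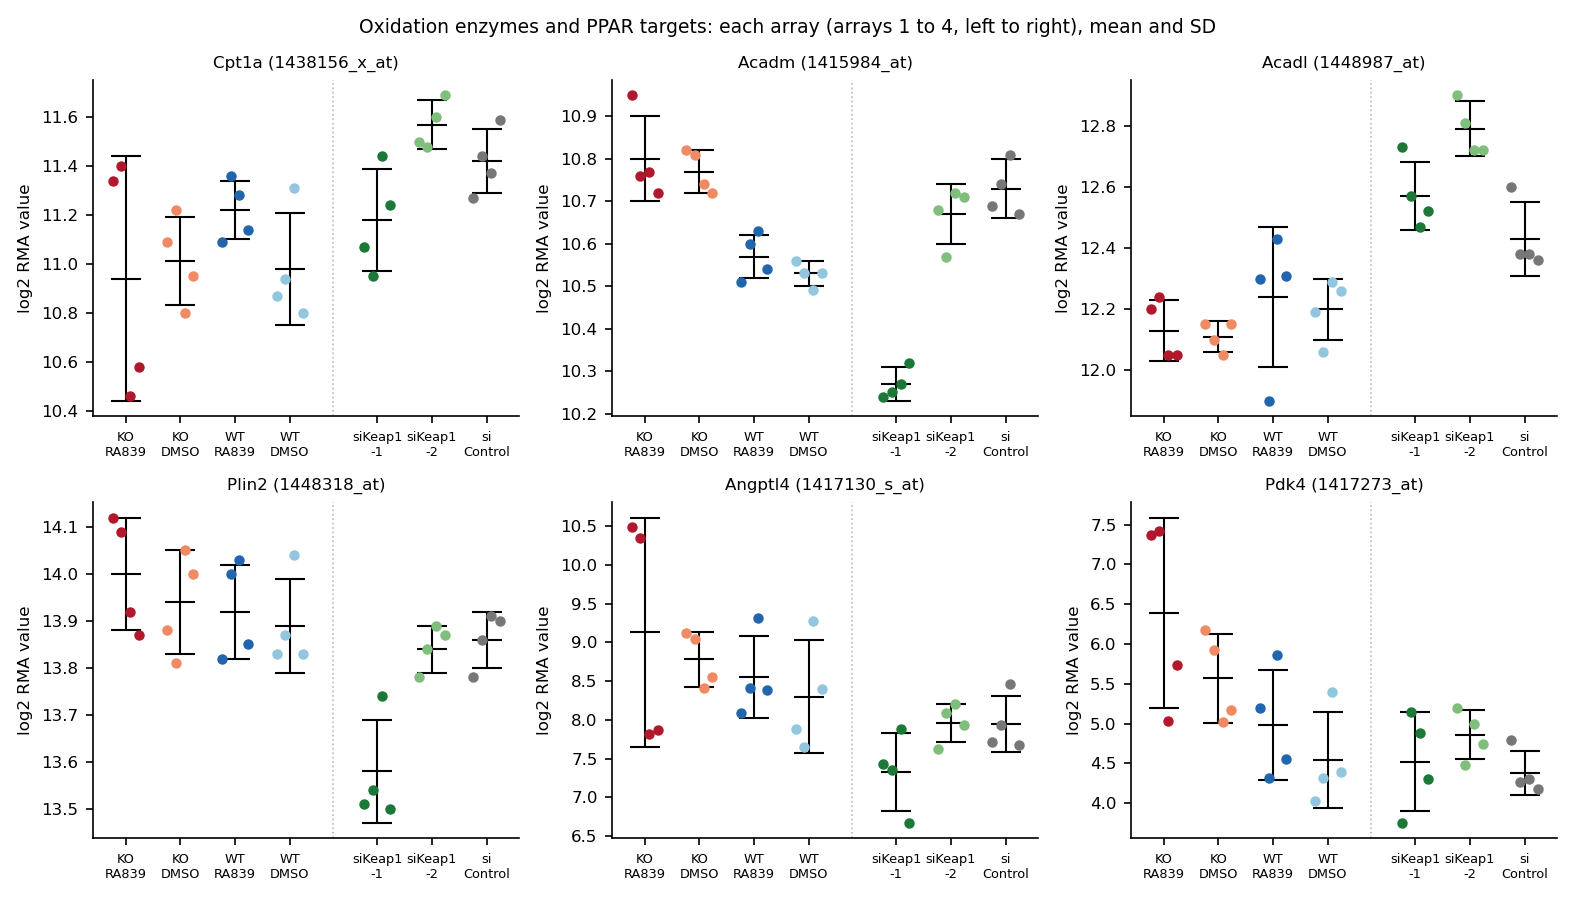
Log2 RMA values of Cpt1a, Acadm, Acadl, Plin2, Angptl4 and Pdk4 (brightest probe sets) on each of the 28 arrays, with the group mean and SD (n = 4). Acadm reads 10.24 to 10.32 with siKeap1-1 and 10.57 to 10.81 on the other siRNA arrays. The RA839-treated KO arrays of Cpt1a, Angptl4 and Pdk4 part into arrays 1 and 2, which are high, and arrays 3 and 4, which are low.

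Within groups, part of the set moved together from array to array, most of all in KO cells. As deviations from the group mean, Angptl4 lay at 1.36, 1.21, -1.31 and -1.26 on the 4 RA839-treated KO arrays and at 0.34, 0.26, -0.37 and -0.23 on the DMSO-treated ones. Pdk4 lay at 0.98, 1.03, -1.36 and -0.65 and at 0.60, 0.35, -0.55 and -0.40 on the same arrays. The sign was thus shared by arrays of 1 number across treatments, and the size was greater with RA839. Ppard and Pparg deviated the other way: on the RA839-treated KO arrays Ppard lay at -0.32, -0.26, 0.30 and 0.29 and Pparg at -0.17, -0.33, 0.27 and 0.22. Over the 8 KO arrays these deviations gave r = 0.98 for Angptl4 with Cpt1a, 0.95 for Angptl4 with Pdk4, -0.94 for Angptl4 with Pparg and -0.92 for Ppard with Pdk4. In WT cells the sign differed for Pparg: over the 8 WT compound arrays Angptl4 and Pparg gave r = 0.90, and the arrays numbered 3 were the highest of their groups for Angptl4, Pdk4 and Pparg. Over the 12 siRNA arrays Angptl4 gave r = 0.13 with Cpt1a, 0.05 with Pdk4, 0.63 with Pparg and 0.73 with Plin2. These are descriptions over few arrays, some of which share an array number, and the labels do not say what a number stands for. Those over the 8 KO arrays largely follow a split between array numbers. Whether that split is particular to these genes was not tested. Deviations of same-numbered KO arrays correlated between treatments at 0.58 to 0.60 over all probe sets. That pairs the numbers across treatments and does not show which numbers part from which. Outside the set, Enpp4 read 8.44, 8.93, 6.66 and 6.58 on the RA839-treated KO arrays. It was chosen for its likeness to Angptl4 over arrays that include these, so it is no separate support.

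**Figure D4:**
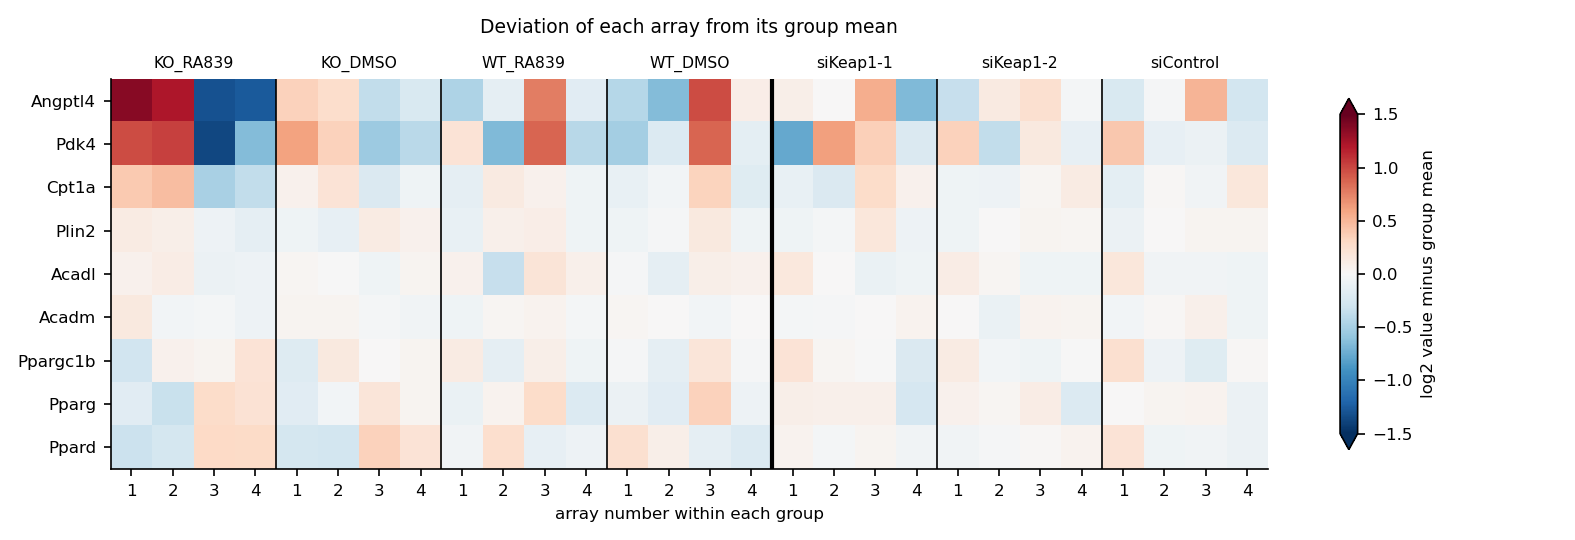
Deviation of each array (columns, numbered within each of the 7 groups) from its group mean for the 9 genes (rows, brightest probe sets), in log2 units, red above and blue below. In the KO groups Angptl4, Pdk4 and Cpt1a are above the mean on arrays 1 and 2 and below it on arrays 3 and 4, with Ppard and Pparg the other way round.

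The wider pathway was read from 5 lists of genes. Among the 13 measured partners and cofactors of PPARs, 1 passed with RA839 in WT cells: Prkaa2, which encodes a catalytic subunit of the energy sensor AMPK. Prkaa2 averaged 6.79 with RA839 and 5.15 with DMSO in WT cells (1.64 ± 0.27, adjusted p = 0.0097), and it was lower in KO than in WT cells under RA839 (-1.99 ± 0.27, adjusted p = 7.9e-05). It rose with siKeap1-1 (0.92 ± 0.12, adjusted p = 0.000521) and with siKeap1-2 (1.74 ± 0.12, adjusted p = 5.23e-06), and was lower with siKeap1-1 than with siKeap1-2 (-0.82 ± 0.12, adjusted p = 0.00285), in each case on the side on which Ppard lay. By genotype, 4 partners were higher in KO cells and 1 in WT cells under DMSO, and 5 and 3 under RA839. Ppargc1a, the sister gene of Ppargc1b, averaged 4.57 and 4.31 in KO cells under DMSO and RA839, against 3.28 and 3.35 in WT cells, levels near the floor of the arrays (1.29 ± 0.16 and 0.96 ± 0.16). Of the RXR genes, Rxra was lower in KO cells, with differences of -0.55 ± 0.13 under DMSO and -0.48 ± 0.13 under RA839, while Rxrb was higher in KO cells under DMSO (0.31 ± 0.10, adjusted p = 0.0416) and did not pass under RA839. In the other 4 lists 0 passed with RA839 in WT cells (limma), and 1 of 17 PPAR targets, 1 of 17 mitochondrial, 1 of 9 peroxisomal and 0 of 8 pyruvate dehydrogenase genes had an unadjusted p under 0.05. With RA839 in KO cells 0 members of any of the 5 lists passed or had an unadjusted p under 0.05. In the difference between genotypes 0 passed, and 1 partner had an unadjusted p under 0.05.

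Among 17 measured PPAR targets in lipid uptake and storage, KO against WT cells gave 1 higher and 5 lower under DMSO and 2 higher and 5 lower under RA839. Cd36, the fatty acid and oxidised lipid receptor, was lower in KO cells, with differences of -0.97 ± 0.10 under DMSO and -0.98 ± 0.10 under RA839. Mgll, a monoglyceride lipase, was lower with differences of -1.55 ± 0.18 and -1.44 ± 0.18, and Vldlr, a lipoprotein receptor, with differences of -0.85 ± 0.23 and -1.01 ± 0.23. Slc27a1, a fatty acid transporter, was higher by 1.02 ± 0.12 and 1.22 ± 0.12. With siKeap1-1 against siControl 2 of the 17 were higher and 4 lower (7.06% and 5.18% of all genes), and with siKeap1-2 2 were higher and 3 lower (4.94% and 3.9%). Cd36 was higher with both (0.27 ± 0.05 and 0.28 ± 0.05), and Klf4, a transcription factor, was lower with both (-0.70 ± 0.13 and -0.54 ± 0.13). Fabp3, a fatty acid carrier, was higher with siKeap1-1 than with siControl (0.74 ± 0.11) and than with siKeap1-2 (0.89 ± 0.11).

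Among 17 measured genes of mitochondrial beta-oxidation, KO against WT cells gave 0 higher and 2 lower under DMSO, and 2 higher and 2 lower under RA839. Eci2, an enoyl-CoA isomerase, was lower in KO cells (-0.54 ± 0.15 and -0.50 ± 0.15) and higher with siKeap1-1 and siKeap1-2 than with siControl (0.73 ± 0.08 each, adjusted p = 0.000131 and 0.000172). Acaa2, a thiolase of the mitochondrial pathway, was lower with siKeap1-1 than with siControl (-0.44 ± 0.07) and than with siKeap1-2 (-0.41 ± 0.07), as Acadm was. In all, 2 of the 17 were higher and 1 lower with siKeap1-1, and 1 was higher and 1 lower with siKeap1-2, counts close to the 12.2% and 8.84% of all genes past the threshold. Between the siRNAs, 1 of the 17 was higher with siKeap1-1 than with siKeap1-2, Crat (0.35 ± 0.07). Acaa2 was 1 of 2 that were lower, where 2.47% of all genes were higher and 2.9% lower. Among 9 measured peroxisomal genes, KO against WT cells gave 3 lower and 0 higher under each treatment, and each siKeap1 gave 1 higher and 0 lower: Pex11a, which acts in peroxisome division, was lower in KO cells (-0.44 ± 0.12 and -0.63 ± 0.12) and higher with siKeap1-1 (0.42 ± 0.12) and siKeap1-2 (0.63 ± 0.12). Among the other 8 genes of the pyruvate dehydrogenase switch, 4 were lower with siKeap1-1 than with siControl, led by Pdp2, a pyruvate dehydrogenase phosphatase (-0.66 ± 0.10), and 1 with siKeap1-2, again Pdp2 (-0.59 ± 0.10), where 5.18% and 3.9% of all genes were lower. In KO against WT cells 0 passed under DMSO and 1 under RA839, where Pdp2 was higher (1.14 ± 0.31). The differences between genotypes in these lists come with 23.2% and 28.6% of all genes past the threshold.

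The genes whose pattern over the 16 compound arrays was most like that of a member were sought among 10319 genes with a mean of 6 or more. These correlations hold both the group differences and the spread between arrays within groups, and are descriptions. Ppard was most like Afg3l2, Nup62 and Slc30a1 (r = 0.97 each), with r of 0.84, 0.70 and 0.80 over the 12 siRNA arrays. Pparg was most like Zswim1, Ndufs1 and Cyfip2 (0.97, 0.96 and 0.96), of which Cyfip2 alone kept a like pattern over the siRNA arrays (0.74, against 0.05 for Zswim1 and 0.01 for Ndufs1). Angptl4 was most like Slc25a20, the carrier that exchanges carnitine esters across the inner mitochondrial membrane (0.92), followed by Nuak2 and Enpp4 (0.89 and 0.87), with siRNA values of -0.01, 0.02 and 0.43. Pdk4 was most like Atp1b1, Fgd2 and Spink2 (0.90, 0.87 and 0.86), with siRNA values of 0.26, -0.16 and 0.03. Cpt1a was most like C2cd5, Aldh9a1 and Cd300a (0.87, 0.86 and 0.86), with siRNA values of 0.11, 0.01 and 0.44. The closest genes for the other members were Ncf4 for Ppargc1b (0.88), Rbms2 for Acadm (0.94), Mrps17 for Acadl (0.89) and Cramp1l for Plin2 (0.70). Over the siRNA arrays these gave 0.76, -0.08, 0.49 and 0.14.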

How the data were processed

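The deposited table holds log2 values per probe set and array, summarised by the authors with RMA (Robust Multi-array Average) per the submitters' processing notes, and its version is not stated in the labels used. RMA scales arrays to a common distribution, so a change shared by all genes cannot be seen, and arrays of different experiments appeared to have been scaled apart. The number of arrays, 4 per group, limits the precision, and the files give no background flags.

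Groups came from the labels. Symbols came from the platform annotation: 34945 probe sets name 1 gene. After removal of 64 control probe sets, 45037 were fitted with limma 3.58.1 (R 4.3.3; lmFit and eBayes, 1 coefficient per group, 16 compound and 12 siRNA arrays apart), with two-sided p-values adjusted by Benjamini-Hochberg over all of them. limma's adjusted p is the only p reported unless a p is called unadjusted. The fit with no block was tested on simulated arrays with independent noise, which leave out the pairing by array number. The fit with the block was not tested in this way. The members and lists were chosen with earlier results of these data known.

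Named genes are all members, Nfe2l2, Keap1 and Nqo1, up to 4 genes per list and comparison by size among those past the threshold, and up to 3 genes most like each member. Rxrb and the marker genes named were chosen after their values were seen. No array pair held identical values. Deviations of same-numbered arrays correlated at 0.20 to 0.40 in WT, 0.58 to 0.60 in KO and 0.11 to 0.63 in the siRNA experiment, every pair above 0.1, so the numbers were taken to pair samples there. Across genotypes they correlated at -0.22 to -0.01 and were not. Alternatives were a trended prior, fewer groups or probe sets in the fit, other scalings, array weights, the block, a stricter threshold and leaving out arrays. Promoter windows are RefSeq's (GRCm38.p6), and tables were made with Python 3.11.15 and pandas 2.3.3.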

Additional observations from a re-analysis of the deposited data

Results flagged for a closer look

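In groups of 4, an array was picked out where its gap to the nearest of the others took up a share of the group's range above Dixon's 95% critical value. Of 98 pairs of a member probe set and a group, 5 met this, where chance gives about 1 in 20.

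For Ppard on 1439797_at, siControl array 1 read 9.03 and the other 3 siControl arrays 8.75 to 8.78, so the siKeap1 differences of array number 1 (0.42 and 0.62) were the smallest of the 4. For Acadl on 1448987_at the same siControl array read 12.60, against 12.36 to 12.38 on the others.

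For Pparg, WT_DMSO array 3 read 10.37 and the others 9.86 to 9.94, and siKeap1-1 array 4 read 9.51 and the others 9.84 to 9.85. On the dim Ppard probe set 1425703_at, siKeap1-1 array 1 read 5.11 and the others 4.62 to 4.70.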

How the results depend on the processing

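Of 112 pairs of a member probe set and a comparison, 17 passed the threshold and 78 passed under no setting, 35 of these with a sign that differed under some setting. No called value changed sign under any alternative run. For RA839 in WT cells the count of the 9 genes past the threshold was 0, and it was 2 with the replicate block, 2 with the block and without both WT arrays numbered 2, 2 with the brighter probe sets (those above the median mean), 2 with 1 probe set per gene in the fit and 1 with the mean of a gene's probe sets. Ppard passed there at 0.0493 with the brighter probe sets and 0.0408 with 1 probe set per gene, and Ppargc1b at 0.0488, 0.0436 and 0.0394. For the difference between genotypes the count was 0, and 1 with the block. For KO against WT in DMSO it was 3, and 1 at an adjusted p of 0.01. Under RA839 it was 4, 2 with only the groups compared in the fit, 2 at 0.01, and 3 with a replicate block that the numbers across genotypes do not bear out, where Pdk4 had an adjusted p of 0.0598. For siKeap1-1 it was 3, and 5 with the block. For siKeap1-2 it was 2, and 1 at 0.01. For siKeap1-1 against siKeap1-2 it was 3, 7 with the block and 1 at 0.01. Leaving out 1 array at a time gave 0 to 0 for RA839 in WT, in KO and for their difference, 1 to 4 for KO against WT in DMSO and 2 to 4 under RA839, 2 to 3 for siKeap1-1, 1 to 2 for siKeap1-2 and 1 to 4 for siKeap1-1 against siKeap1-2. Apart from the block values given beside the results, the block changed no call on a brightest probe set, while on other probe sets Cpt1a passed with it on 1460409_at for both siRNAs against siControl (0.0214 and 0.0202) and on 1434866_x_at between them (0.0439), and Acadl on 1448988_at for KO against WT under RA839 (0.0416). The cause of these shifts was not tested beyond what each setting changes. Leaving out both WT arrays numbered 2, with or without the block, was chosen after seeing the data. For the difference between genotypes, only the groups compared is the fit itself and was not run again. Dim probe sets lie near the floor of the arrays, where differences are compressed.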
